A study of Mus musculus with 3 samples.

Results

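MicroRNAs (miRNAs) were compared between mouse thymocytes that express ICN1, the intracellular active form of the receptor NOTCH1, without being malignant, and normal thymocytes. This comparison rests on 2 of the 3 arrays of the study, with 1 array on each side. The control array held RNA of normal thymocytes positive for both CD4 and CD8. The non-malignant ICN1 array held RNA of cells positive for both CD4 and CD8 that express ICN1. The remaining array held RNA of ICN1 tumor cells, also positive for CD4 and CD8, and its values are given only beside those of the other groups. All samples came from the Balb/c background. Each RNA was labelled with the dye Hy3 and hybridised to a 2-colour LNA array together with a pool of equal amounts of the 3 samples labelled with Hy5, with no dye swap. The sources used here do not give the promoter or vector that drives ICN1, the age of the animals, the number of animals behind each RNA or the criterion for calling cells non-malignant. The names of the deposited files carry different week numbers for the arrays, which the labels do not explain, so a difference in time or age between the groups cannot be told apart from the effect of ICN1.

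Thymocytes positive for both CD4 and CD8 are the stage at which the T cell receptor alpha chain is rearranged and cells are selected on self peptides. NOTCH1 signalling drives the earlier commitment to the T lineage and normally declines at this stage, and activated NOTCH1 is a common oncogene of T-cell acute lymphoblastic leukaemia (T-ALL). A miRNA is cut from a hairpin precursor and guides Argonaute proteins to messenger RNAs, mainly through its seed at bases 2 to 8. miRNAs that share a seed share many predicted targets, and miRNAs whose hairpins lie close together are often cut from 1 transcript.

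The array carried 450 probes with a plain human miRNA name, mismatch probes left aside. Of these, 275 had a mouse gene of the same name and 175 had none. Hy3 signal was taken as detected when it lay more than 2 background standard deviations (SDs) above the background median on at least 50% of the usable spots. On at least 1 of the arrays compared, 167 of the 275 mouse-matched probes and 90 of the 175 others were detected. miR-181d was among the 167, but all its spots on the non-malignant array carried a bad-spot flag, so 166 mouse-matched probes had a difference. On the control array 60% of the mouse-matched probes were detected, and on the non-malignant array 56%.

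Samples were not replicated, so differences carry no test and no p-value. Each difference below is, on the log2 scale, the ratio of sample to pool in non-malignant cells minus that in control cells, after background correction and loess normalisation within each array. The ± value is the standard error (SE) over the up to 4 replicate spots of each probe and covers spot error only. The pool, the same RNA on both arrays, gives a further yardstick. After centring, its Hy5 signal shifted between the arrays with an SD of 0.17 on the log2 scale over the detected miRNA probes. Of the probes, 95% shifted by less than 0.33, but the largest absolute shift was 1.26. The signal of the same RNA could thus shift by more than 2-fold on a single probe. Not every probe had the pool above background on both arrays, so these figures include dim readings. Spike-in controls differed by -0.07 to 0.11. A 2-fold difference, 1 on the log2 scale, was used as the threshold for naming.

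The mature sequences of the miRNAs past 2-fold, and of relatives that did not move with them, are shown because seed and locus relations run through the results. They were taken from RefSeq for mouse (GRCm38.p6), and capitals mark the seed. Of 25 mature sequences sought, 23 were matched by name. The probes were designed to human miRNAs, so the mouse sequence may differ from the probe target outside what the name tells. The name miR-500 does not tell the arm, so both arms are shown, followed by the arms of neighbouring miR-501 and miR-362 whose seeds resemble them. All lie on the minus strand within the bounds of Clcn5, a gene for a chloride transporter.
mmu-miR-500-3p (chrX:7237695-7237716): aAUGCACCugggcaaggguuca
mmu-miR-501-3p (chrX:7241270-7241291): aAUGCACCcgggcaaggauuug
mmu-miR-500-5p (chrX:7237730-7237754): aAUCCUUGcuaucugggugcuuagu
mmu-miR-362-5p (chrX:7242019-7242042): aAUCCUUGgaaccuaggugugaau
The 3p arms of miR-500 and miR-501 share their seed and are identical at 18 of 22 bases.

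The miR-449 gene lies within the bounds of Cdc20b, and its seed is that of the miR-34 family, which is encoded elsewhere.
mmu-miR-449a-5p (chr13:113037549-113037570, plus strand): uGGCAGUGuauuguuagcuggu
mmu-miR-34a-5p (chr4:150068473-150068494, plus strand): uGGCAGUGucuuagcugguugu
Outside the seed they diverge, so that 15 of 22 bases are identical position by position.

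miR-9 and miR-9* are opposite arms of the same hairpin, which the mouse genome carries at 3 loci, of which that on chromosome 3 is given here.
mmu-miR-9-5p (chr3:88215613-88215635, plus strand): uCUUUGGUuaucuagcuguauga
mmu-miR-9-3p (chr3:88215652-88215673, plus strand): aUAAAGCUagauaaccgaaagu

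The other miRNAs on the higher side were miR-223, encoded on the X chromosome outside the bounds of any protein-coding gene, and miR-21, within the bounds of Vmp1.
mmu-miR-223-3p (chrX:96242884-96242905, plus strand): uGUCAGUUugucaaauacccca
mmu-miR-21a-5p (chr11:86584120-86584141, minus strand): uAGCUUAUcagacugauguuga

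On the lower side, miR-26a is encoded within Ctdspl and Ctdsp2 and its relative miR-26b within Ctdsp1, and the pair differs at 2 of 21 bases with the same seed. miR-23a and miR-27a lie in 1 cluster on chromosome 8 outside protein-coding genes. miR-144 and miR-451 lie next to each other on chromosome 11.
mmu-miR-26a-5p (chr9:119031811-119031832, plus strand): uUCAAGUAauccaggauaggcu
mmu-miR-26b-5p (chr1:74394324-74394344, plus strand): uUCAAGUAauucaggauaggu
mmu-miR-23a-3p (chr8:84208563-84208583, plus strand): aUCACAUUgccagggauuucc
mmu-miR-27a-3p (chr8:84208727-84208747, plus strand): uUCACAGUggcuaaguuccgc
mmu-miR-451a (chr11:78073186-78073207, plus strand): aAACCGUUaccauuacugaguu
mmu-miR-144-3p (chr11:78073047-78073066, plus strand): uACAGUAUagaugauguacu
No pair among these 6 shares a seed other than miR-26a and miR-26b.

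In the non-malignant ICN1 cells, 7 miRNA probes were at least 2-fold higher than in control cells and 3 were at least 2-fold lower, while most others stayed close to their control level. The higher ones were miR-500, miR-449, miR-9*, miR-449b, miR-223, miR-21 and miR-9, and the lower ones miR-26a, miR-451 and miR-23a. All 10 had a mouse gene of that name. They made up 6.02% of the 166 mouse-matched probes, with 4.22% higher and 1.81% lower, and 3.91% of all 256 human-named probes, with 2.73% higher and 1.17% lower. The split of 7 higher to 3 lower became 4 to 3 with the Hy3 channel alone and 7 to 1 with loess fitted on the mouse-matched probes only. At 1.5-fold, 8 mouse-matched probes (4.82%) were higher and 14 (8.43%) lower. None of the other 90 probes, whose names no mouse gene bears, passed 2-fold in either direction. Their differences had an SD of 0.14 over probes, against 0.43 over the mouse-matched ones, and their extremes were -0.74 for miR-422b and 0.36 for miR-637, both chosen here as the extremes after the values were seen. miR-422b is an older name of miR-378, for which mouse has a gene. The array's own probe named miR-378 differed by -0.03 ± 0.026 and was not detected on the non-malignant array. The names do not tell which arm of the hairpin each probe reads, so these values need not concern the same mature miRNA.

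**Figure D1:**
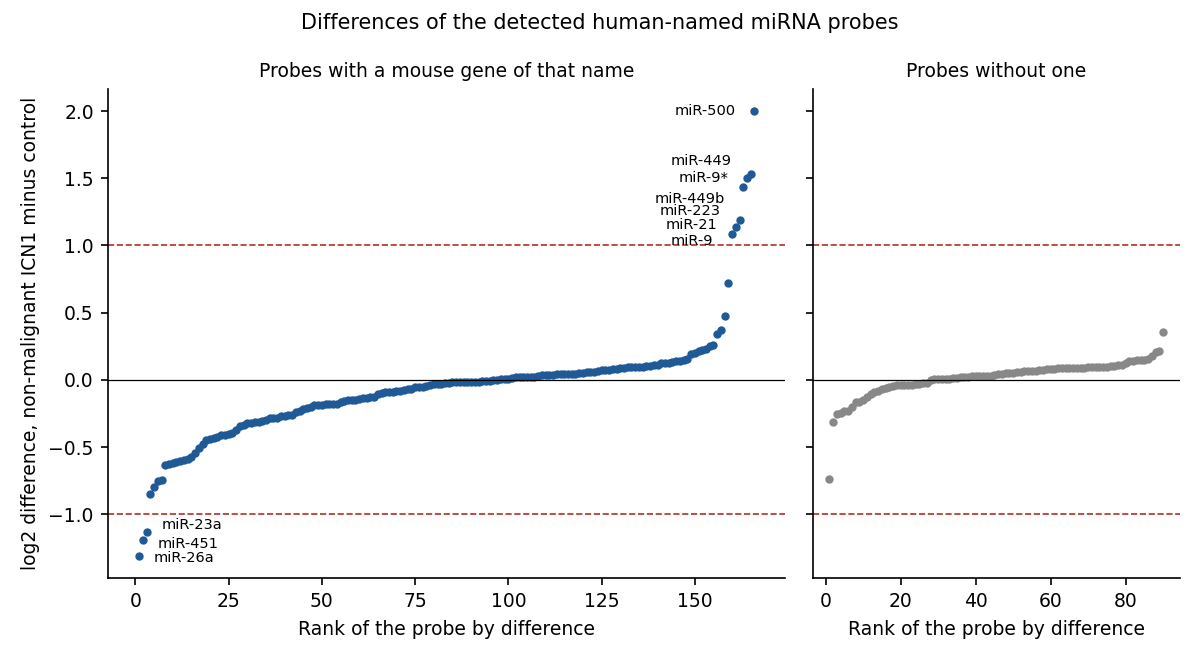
Log2 difference between the non-malignant ICN1 and the control array (y axis) against the rank of the probe (x axis), with 1 point per detected probe, 166 with a mouse gene of that name on the left and 90 without one on the right; dashed lines mark 2-fold. The 7 higher and 3 lower probes past the lines are all in the left panel, where miR-500 stands highest at 2.0.

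The largest difference was that of miR-500. Its Hy3 signal was 976 in control, 3877 in non-malignant and 219.6 in tumor cells, and its log2 ratios to the pool were -0.80, 1.2 and -1.53 in the same order. The 4 control spots ran from -0.83 to -0.76 and the 4 non-malignant spots from 1.17 to 1.24, so the spots of the arrays did not overlap. The difference was 2.0 ± 0.023, a 4.0-fold higher ratio. The pool itself read 1833 on the control array and 1944 on the non-malignant array, so nearly all of the change lay in the sample channel.

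The other probes of the miR-500 cluster did not show a like difference, but all of them were dim or not detected. Of the 7 probes fixed for this X-linked cluster, 3 were detected, miR-500 among them. The list follows human names, and no gene for miR-502 or miR-660 was placed at the mouse locus. miR-532 differed by -0.05 ± 0.029 and miR-502 by -0.09 ± 0.064, with Hy3 signals of 114 and 123 on the control array and 113 and 118 on the non-malignant array. miR-188, miR-362, miR-501 and miR-660 were not detected on either array. The probe for miR-501, whose 3p arm shares the seed of miR-500-3p shown above, read 77.1 in control and 80.8 in non-malignant cells, both at background. Whether the miR-500 probe reads miR-500 alone was not tested.

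miR-449 and miR-449b, neighbouring miRNAs with the miR-34 seed, were both higher. The miR-449 signal was 165 on the control, 378.5 on the non-malignant and 121 on the tumor array, with log2 ratios of -0.47, 1.06 and -0.68. The miR-449b signal was 141.6, 306 and 98.6, with ratios of -0.60, 0.84 and -0.93. For both, every non-malignant spot lay above every control and tumor spot. The differences were 1.53 ± 0.017, a 2.89-fold higher ratio, and 1.44 ± 0.035, a 2.71-fold higher ratio. Whether each probe also reads the other miRNA was not tested, so the increases may not be separate.

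The miR-34 miRNAs, transcriptional targets of p53, did not follow them despite the shared seed. miR-34a read 139 in control and 135 in non-malignant cells, a difference of -0.07 ± 0.028. miR-34c read 161 and 149, a difference of -0.13 ± 0.034 that rests on 2 usable spots of the non-malignant array. miR-34b was not detected on either array.

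Both arms of miR-9, a miRNA best known from the nervous system that also acts in blood cells, were higher, though both were dim. For miR-9, too, the pool was not above background on either array. It read 116 on the control, 193 on the non-malignant and 113 on the tumor array, with ratios of -0.17, 0.92 and -0.15, and differed by 1.08 ± 0.034. Of its control spots, 3 were usable. miR-9* read 79.9, 166 and 81.1, and was not detected on the control or the tumor array. As scaled here, by loess within arrays and quantiles of mean intensity between them, the Hy3 signal of miR-9* was at least 2.17-fold higher in non-malignant cells than the higher of the dimmest detected signal and its own control signal. That figure depends on the scaling and is open to dye bias, and with the Hy3 channel alone the difference was 0.98 on the log2 scale. The ratio to the pool differed by 1.5 ± 0.062 as normalised here and by 0.98 to 2.59 under the alternatives, but it is set against a control reading at background, and the pool was not above background on either array. miR-9* entered the comparison only through the array on which it was high.

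**Figure D2:**
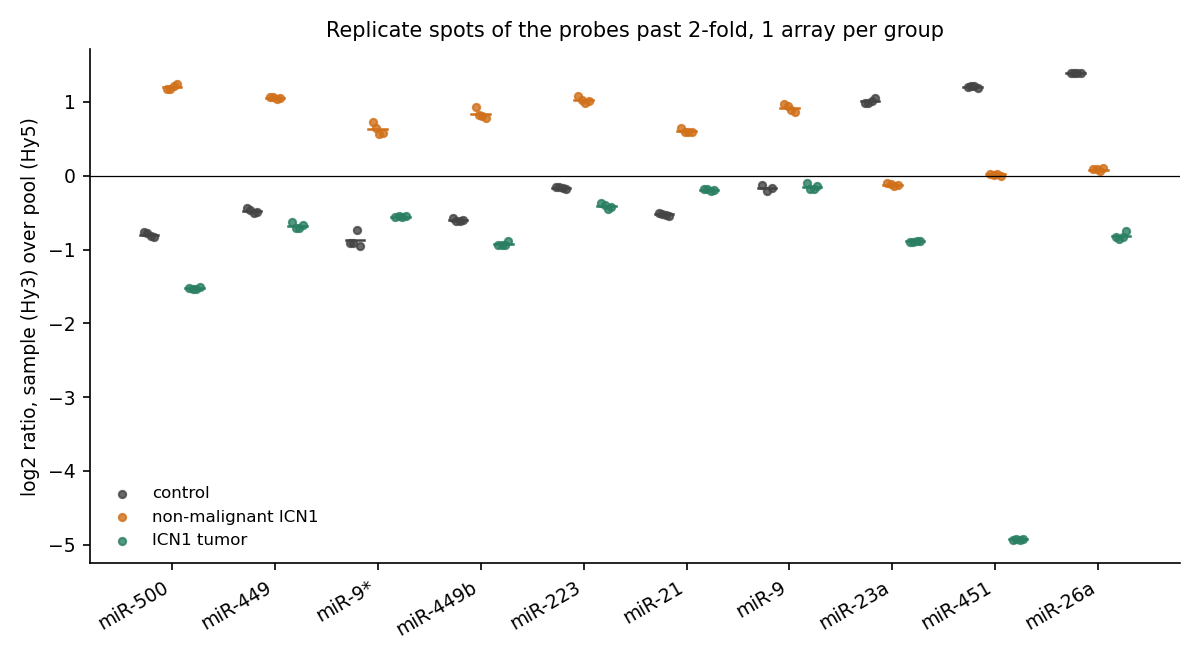
Log2 ratio of sample (Hy3) to pool (Hy5) for every usable replicate spot of the 10 probes past 2-fold (x axis), by array; points are spots of 1 array per group and short bars their means. The non-malignant spots lie apart from the control spots for all 10, and the tumor array read lowest for miR-451 at -4.93.

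miR-223, a miRNA abundant in granulocytes and other myeloid cells that also promotes T-ALL in mice, was higher. Its signal was 246 on the control, 455 on the non-malignant and 138 on the tumor array, with ratios of -0.16, 1.03 and -0.41. The control spots ran from -0.18 to -0.15 and the non-malignant spots from 0.98 to 1.08. The difference was 1.19 ± 0.021. The other probes of the myeloid list stayed level, with miR-424, called miR-322 in mouse, at 0.03 ± 0.017 and miR-503 at -0.05 ± 0.010, and all 3 were detected on both arrays. The summed Hy3 signal of the list was 2334 in control and 2368 in non-malignant cells, where miR-503 alone read 1985 and 1809.6. The part of myeloid RNA in the miR-223 difference was not tested. In RNA of whole samples, fewer cells of a type and less RNA per cell cannot be told apart.

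miR-21, which is raised in many tumors, was also higher. It read 484 on the control, 1017 on the non-malignant and 443 on the tumor array, with ratios of -0.52, 0.61 and -0.19, and differed by 1.13 ± 0.017. Within the list of miRNAs linked to activation and NF-kappaB, miR-21 was the only one of 6 detected probes past 2-fold, where 4.22% of all mouse-matched probes were 2-fold higher and 1.81% lower. miR-146a, a feedback inhibitor of NF-kappaB signalling, differed by 0.47 ± 0.024, from 155.5 to 198.96. miR-222 differed by 0.22 ± 0.0099, miR-146b by 0.10 ± 0.051 and miR-221 by 0.00 ± 0.021. miR-155, an oncogenic miRNA induced on lymphocyte activation, lay on the other side at -0.40 ± 0.022, from 238 to 175, and miR-132 was not detected. The list's median was 0.16, against -0.02 over all 166 mouse-matched probes, and turned to -0.08 with the Hy3 channel alone.

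The lower side was led by miR-26a, which represses EZH2. Its signal was 1595 on the control, 623 on the non-malignant and 208 on the tumor array, with ratios of 1.39, 0.08 and -0.81. The difference was -1.31 ± 0.0089, so that the ratio was 2.48-fold lower, and no spots overlapped. miR-26b, with the same seed, read 1565, 930 and 352 and differed by -0.63 ± 0.012.

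miR-451, which is matured by AGO2 without Dicer and is abundant in red cell precursors, was lower. It read 23705 on the control, 11490 on the non-malignant and 575 on the tumor array, with ratios of 1.21, 0.02 and -4.93, and differed by -1.19 ± 0.0085. Its spots did not overlap between arrays. The probe for the gene next to it, miR-144, cut from the same transcript in red cells, moved the other way. Its signals were 165, 227 and 101, with ratios of -0.09, 0.63 and -1.11 and a difference of 0.72 ± 0.020. With the Hy3 channel alone the miR-144 difference was 0.37. An altered copy of this probe read brighter, at 374 on the control and 930 on the non-malignant array. Whether the miR-144 probe reads miR-144 alone was not tested. The last erythroid marker, miR-486, differed by -0.31 ± 0.016, from 359 to 276. All 3 erythroid markers were detected on both arrays, and their summed Hy3 signal was 24229 in control and 11994 in non-malignant cells. Nearly all of that sum was miR-451. The part of red cell RNA in the miR-451 difference was not tested.

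Of the 3 miRNAs of the miR-23a cluster, miR-23a was past 2-fold lower and the others were below 0 but short of it. miR-23a read 1017 on the control, 448 on the non-malignant and 184 on the tumor array, with ratios of 1.01, -0.12 and -0.89, and differed by -1.13 ± 0.018. miR-27a, a short way downstream, differed by -0.75 ± 0.014, from 176 to 116. miR-24, encoded in both this cluster and its paralog, differed by -0.62 ± 0.025, from 490 to 292. The paralogous cluster on chromosome 13 stayed nearer to control, with miR-23b at -0.18 ± 0.012, miR-27b at 0.14 ± 0.019 and miR-189, the other arm of a miR-24 hairpin, at -0.18 ± 0.0091. miR-27a and miR-27b differ at 1 of 21 bases, so some of each signal may come from the other. Across both clusters 5 of 6 probes were below 0, with a median of -0.40, and 4 of 6 with median centring or with loess on the mouse-matched probes.

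Just short of 2-fold stood miR-211, miR-128a, miR-27a, miR-128b and miR-144, the 5 largest differences under the threshold among the mouse-matched probes. miR-211 read 495.9 in control and 309 in non-malignant cells, a difference of -0.85 ± 0.012. Its relative miR-204, identical at 21 of 22 bases, differed by 0.02 ± 0.043, from 119.8 to 120.1. The probes named miR-128a and miR-128b, after paralogous genes that give the same mature miRNA in mouse, differed by -0.79 ± 0.0096 and -0.74 ± 0.014, from 1000.3 to 552 and from 390.5 to 239. Among the 10 named miRNAs, those nearest the threshold were miR-9 at 1.08 and miR-23a at -1.13.

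**Figure D3:**
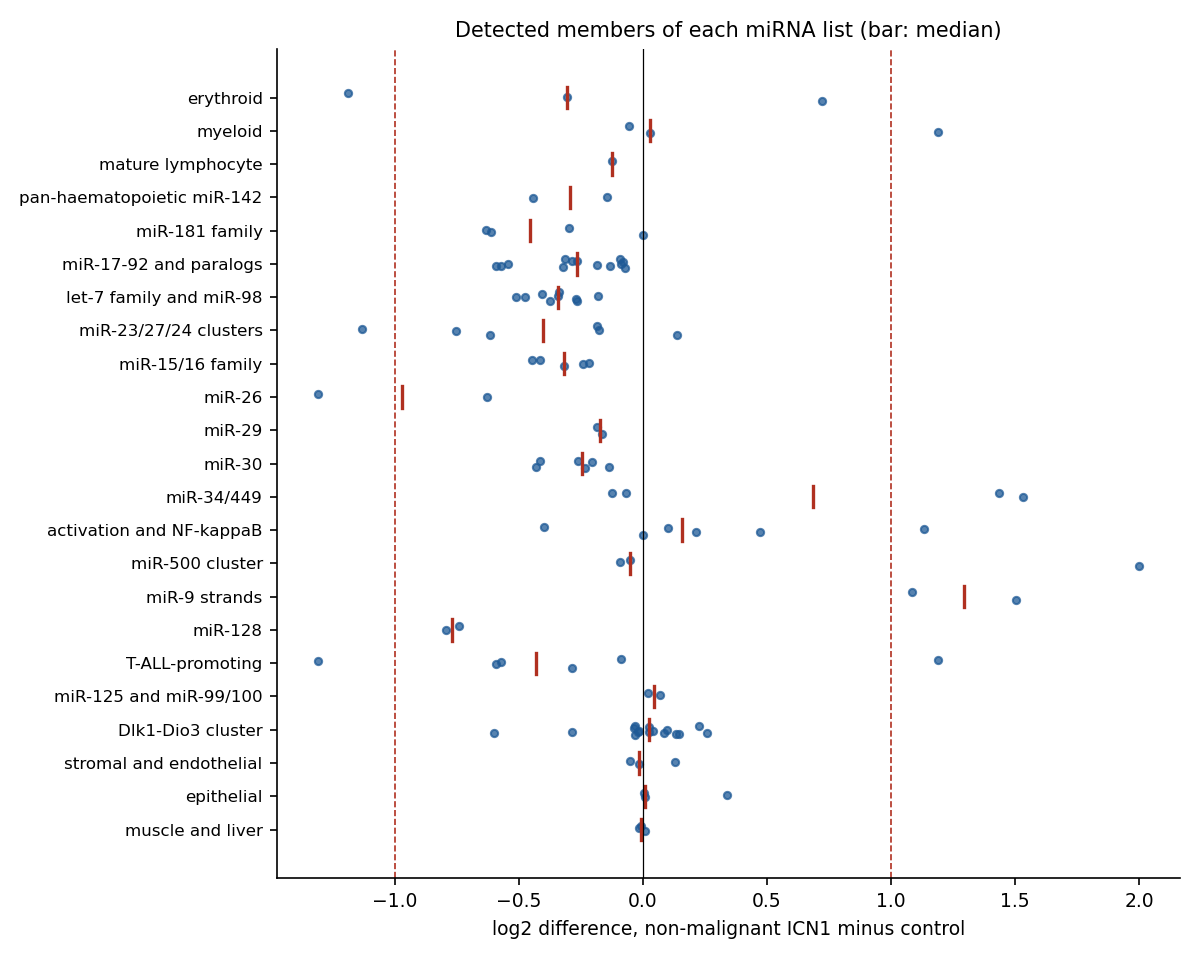
Log2 difference of every detected member (points) of each list of miRNAs (y axis), with the list's median as a vertical bar and 2-fold as dashed lines. With the normalisation used here every point of the let-7, miR-17-92, miR-30 and miR-15/16 lists lies left of 0, whereas 10 of the 13 miR-17-92 and 7 of the 9 let-7 points do with loess on the mouse-matched probes; both miR-9 strands and 2 of 4 miR-34 and miR-449 probes lie right of the 2-fold line.

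With the normalisation used here, several families with bright members had differences below 0 but short of 2-fold for every member compared. These were the 13 detected probes of miR-17-92 and its paralogs, an oncogenic group in T cells, the 9 of let-7 with miR-98, the 6 of miR-30 and the 5 of the miR-15/16 family, which represses BCL2 and cyclins. Their medians were -0.26, -0.34, -0.25 and -0.32 and stayed below 0 under all 11 alternative settings. Some members were dim, and miR-92, miR-92b and miR-497 were detected on the control array only. miR-497 read 105 in control and 108 in non-malignant cells and differed by -0.22 ± 0.11, so these members say little about direction. Under the settings reported here, 57.8% of all mouse-matched probes were below 0. The 2 probes named miR-20a differed by -0.59 ± 0.016 and -0.57 ± 0.011, and miR-17-5p-106a by -0.54 ± 0.011. In the other families, let-7a went from 9308 to 6086 with a difference of -0.51 ± 0.013, and miR-16 from 6590 to 4262 with a difference of -0.45 ± 0.0062. None of these 33 probes passed 2-fold, where 1.81% of all mouse-matched probes were 2-fold lower.

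The values were also compared between brighter and dimmer probes. Of the 83 mouse-matched probes at or above the median control signal of 174, 52 were below 0 with a median of -0.18, and all 14 probes at least 1.5-fold lower were among them. Of the 83 dimmer probes, 44 were below 0 with a median of -0.01. At least 1.5-fold higher were 3 of the brighter and 5 of the dimmer probes. The split used the control signal, which also enters the difference, so a lean below 0 among brighter probes is partly built in. Probes near background also had little room to fall. When loess was fitted on the mouse-matched probes alone, 10 of the 13 miR-17-92 probes and 7 of the 9 let-7 probes were below 0 and their medians rose to -0.03 and -0.14. With median centring in place of loess, 8 of those 13 miR-17-92 probes and 5 of the 6 miR-30 probes were below 0. The part of signal strength in the family differences was not tested.

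Markers of the cell type were present on both arrays. miR-181a, which tunes T cell receptor sensitivity in thymocytes with both CD4 and CD8, differed by -0.61 ± 0.022, from 253 to 165, and its opposite strand miR-181a* by -0.63 ± 0.014, from 247 to 160.5. miR-181b, its neighbour, differed by -0.30 ± 0.013 and miR-181c, from another cluster, by 0.00 ± 0.019. The blood-cell miRNAs miR-142-5p and miR-142-3p read 8997 and 12535 in control cells and differed by -0.44 ± 0.010 and -0.14 ± 0.013, and their median of -0.29 turned to 0.04 with loess on the mouse-matched probes. miR-150, a marker of mature lymphocytes, was dim at 124 and 111 and differed by -0.13 ± 0.020. Its sign turned with median centring, to 0.20, and with loess on the mouse-matched probes, to 0.03. CD4, CD8 and NOTCH1 themselves are not measured by a miRNA array.

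Markers of other tissues stayed near 0. Of the stromal and endothelial list, 3 of 8 probes were detected, with differences from -0.05 to 0.13, and miR-126, miR-143, miR-199a, miR-199a* and miR-10b were not detected on either array. Of the epithelial list, 3 of 6 were detected, led by miR-200b at 0.34 ± 0.040, from 136.2 to 155.1. The 3 detected of 4 muscle and liver probes differed by -0.01 to 0.01. Among them, miR-122a was detected on the control array only, with signals of 111 in control and 89.3 in non-malignant cells. The summed Hy3 signal of the stromal list was 2845 in control and 2434 in non-malignant cells, before normalisation. Of this, miR-214 alone read 2250 and 1850, though its normalised difference was 0.13 ± 0.014. The sum of the epithelial list was 638 and 652, and that of the muscle and liver list 467 and 456.

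The list of miRNAs that promote T-ALL in mice split. Of its 6 probes, miR-223 was past 2-fold higher and miR-26a past 2-fold lower, where 4.22% of all mouse-matched probes were higher and 1.81% lower. Between them lay miR-19b at -0.29 ± 0.020, miR-92 at -0.09 ± 0.021 and the 2 miR-20a probes above. The list's median, which counts both miR-20a probes, was -0.43, against -0.02 over all 166 mouse-matched probes. It ran from -0.67 to -0.24 under the alternatives. Of the 45 probes of the imprinted Dlk1-Dio3 cluster, 16 were in the comparison, 9 above and 7 below 0, with a median of 0.03. Its lowest member, miR-654, differed by -0.60 ± 0.033 although its Hy3 signal went only from 401 to 356, while the pool read 298.96 on the control and 419 on the non-malignant array. miR-29a and miR-29b differed by -0.18 ± 0.013 and -0.16 ± 0.011, and the 2 detected miR-125 probes, miR-125a and miR-125b, by 0.07 ± 0.013 and 0.02 ± 0.023.

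With probes paired by a shared name, both arms of a hairpin were in the comparison for 8 hairpins. The differences of the arms lay within 0.2 of each other for 5, miR-181a among them. miR-24 and miR-189, arms of 1 hairpin with unlike names, fell outside this count. They differed by -0.62 ± 0.025 and -0.18 ± 0.0091. Other arms in this count, such as those of miR-182, hardly differed from control and would lie that close even if unrelated. The exceptions among the 8 paired by name were miR-9 and miR-142, whose values are given above, and miR-191. miR-191 and miR-191* differed by -0.32 ± 0.012 and 0.07 ± 0.061, and miR-191* was near background with signals of 104 on both arrays. The array also held mismatch probes, altered copies of a miRNA probe that test how much related sequence a probe tolerates. For 51 detected mismatch probes with a detected perfect match, the difference fell within 0.2 of the perfect match's in 41. In many of these pairs both differences were small, so unrelated probes would often lie that close too. No rate for unrelated probes was computed. The mismatch probe of miR-449 read 106.3 in control and 107.4 in non-malignant cells, a difference of 0.04 ± 0.020, and that of miR-449b read 131 and 114, a difference of -0.22 ± 0.035. Neither altered copy differed as its perfect match did. The mismatch probe of miR-144 differed by more than its perfect match. It read 374 on the control, 930 on the non-malignant and 151 on the tumor array and differed by 1.55 ± 0.014, against 0.72 for the perfect match.

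**Figure D4:**
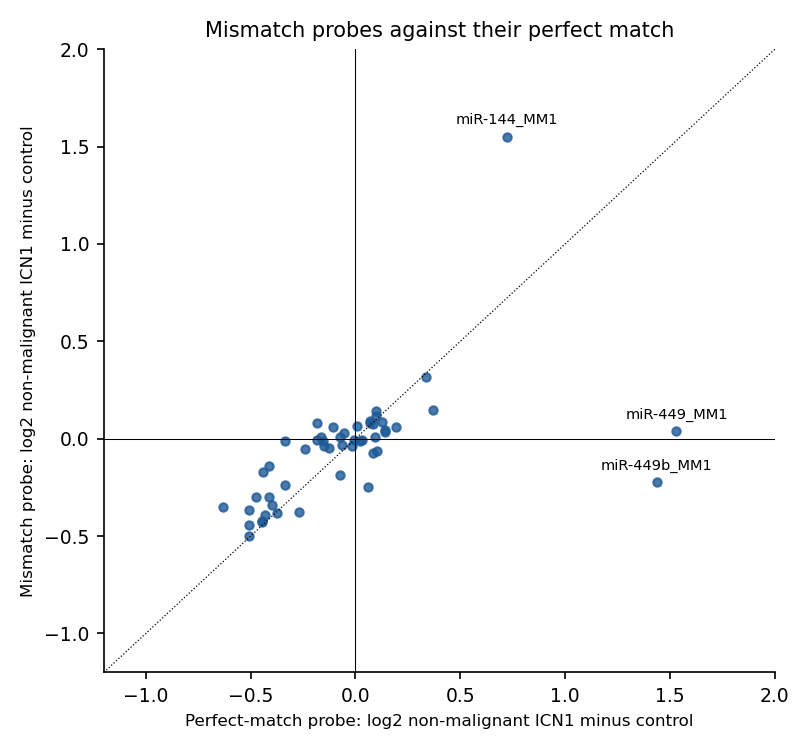
Log2 difference of each mismatch probe (y axis) against that of its perfect-match probe (x axis), 51 pairs with 1 point each; the dotted line marks equal values. Most pairs lie near the line, miR-449 and miR-449b lie far below it, and miR-144 lies above it.

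A last set of values used the construction of the pool. If the pool holds equal parts of the 3 samples and the dyes read alike, the 3 linear ratios of sample to pool average 1. Loess within each array also centres most ratios near 1, whatever the pool holds. A median near 1 was therefore largely set by the normalisation and tests neither the pool nor the dyes. Over the 256 probes the median of this average was 1.03, and 95% of probes lay between 0.76 and 1.67. It was 1.07 for miR-500, 1.14 for miR-449, 1.03 for miR-21, 1.12 for miR-451, 1.16 for miR-23a and 1.42 for miR-26a. The average is not given here for the other named miRNAs.

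**Figure D5:**
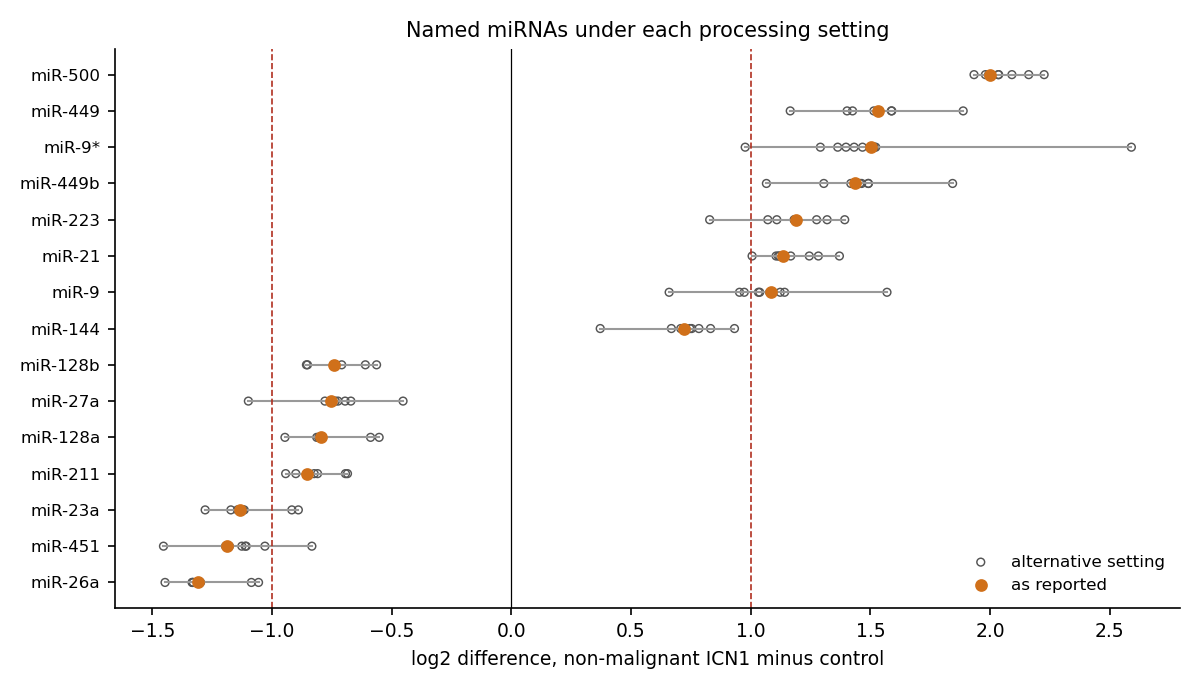
Log2 difference (x axis) of the 10 probes past 2-fold and the 5 next largest among mouse-matched probes (y axis), as reported (filled) and under 11 alternative settings of the scanner data (open); dashed lines mark 2-fold. miR-500, miR-449, miR-449b, miR-21 and miR-26a stay past the line under every setting drawn, and no probe crosses 0. The settings that change only the filter on dim probes repeat the reported value by construction.

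The 10 named miRNAs kept their direction under every alternative that gave them a value, as drawn in the plot of settings. That was all 11 for each but miR-9*, which detection on both arrays left out. miR-500, miR-449, miR-449b, miR-21 and miR-26a were past 2-fold under each of them. miR-9 passed under 8, miR-23a under 9, and miR-223 and miR-451 under 10 of 11, and miR-9* under 9 of 10. Detection on both arrays and no filter on dim probes changed only which probes were counted. Under these settings the difference of a named probe could not move, so their part in these tallies was fixed in advance.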

How the data were processed

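Total RNA was isolated with Trizol, per the labels, and each Hy3-labelled sample was hybridised with the Hy5-labelled pool to 1 miRCURY LNA array. Per the file headers, the deposited scanner tables list the signal and background intensity of each spot, linear and before any normalisation, and a flag for spot quality, which is a score. Another deposited table appears to hold log2 ratios; its centring, direction and normalisation are unknown, and its rows match no probes, so only differences between its columns were counted. The sources used here do not name the scanner or its software.

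Each array had 6720 spots. Spots with flag 3 were dropped (72 on the control and 125 on the non-malignant array, 18 and 22 of them in miRNA probes). The signal mean was background-corrected by normexp with offset 50, log2 Hy3/Hy5 was normalised by global loess in which control and mismatch spots had weight 0, using limma 3.58.1 in R 4.3.3, and spots of a probe were averaged. The steps were run on a copy of the control array with small spot noise and known changes in some probes. That copy held no probe-level shift between arrays such as the pool showed. It therefore checks the code and not how reliable the 2-fold calls are. Precision is limited by the number of arrays. The design assumed mouse probe names; the probes carry human names, which were matched to mouse genes of RefSeq (GRCm38.p6) by symbol or synonym.

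Named were all mouse-matched probes past 2-fold, the 5 next largest differences among them, and members of miRNA lists, up to 6 a list. The members and lists were chosen with earlier results of these data known. Alternatives covered normalisation, background, spots and the filter on dim probes. Tables and figures used Python 3.11.15, pandas 2.3.3 and matplotlib 3.10.9.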

Additional observations from a re-analysis of the deposited data

Results flagged for a closer look

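The mismatch probe of miR-144, which the comparison of miRNA probes did not use, gave a signal above that of the control array: its log2 ratio was 1.55 higher in non-malignant ICN1 cells than in control cells, with spots that agreed to a standard error of 0.014. It was the only 1 of 51 detected mismatch probes past 2-fold in either direction. No explanation was tested.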

How the results depend on the processing

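Under the 11 alternative settings of the scanner data, the count of probes at least 2-fold higher ranged from 4 to 7 and that of probes at least 2-fold lower from 1 to 4, both over the human-named and over the mouse-matched probes. With the Hy3 channel alone, 4 probes were higher in place of 7: miR-223, miR-9 and miR-9* fell short. With loess fitted on the mouse-matched probes, 1 was lower in place of 3: miR-23a and miR-451 fell short, at -0.89 and -0.83. The causes were not tested. The remaining settings kept both counts within 1.5 times. Median centring lost miR-23a, print-tip loess and no background correction lost miR-9, an offset of 10 added miR-27a at -1.10, and detection on both arrays left out miR-9* by its own construction. In the authors' deposited table, 4 of 104 rows with values for both groups were at least 2-fold higher in the non-malignant column and 3 lower. That table's direction and normalisation are unknown and its rows match no probes, so these counts cannot be set against those above. The median over all probes moved from 0.00 to -0.17 with the Hy3 channel alone and to 0.16 with median centring, and the share of mouse-matched probes below 0 from 57.8% to 84.3% and 30.1%, so directions of small differences depend on the scaling. The Hy5 pool was above background on both arrays for 96 of the 166 mouse-matched probes, which limits ratios of dim probes such as miR-9 and miR-9*. No paired analysis was possible because each group has 1 sample.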

Other observations

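Besides the miRNA probes, 524 detected probes bore names of the manufacturer's own candidates or of sequences with no known human target. Of these, 0 were at least 2-fold higher and 3 at least 2-fold lower in non-malignant ICN1 cells, with a range from -1.38 to 0.91. No tool tested these counts, since each group has 1 array. The files pair no gene with these probes.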
